A study of Mus musculus with 5 samples.

Results

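The genes described are 10 core components of the NF-kB pathway, measured by RNA-seq in CD45-sorted leukocytes from mouse lung: the subunits Nfkb1, Nfkb2, Rel, Rela and Relb, the inhibitors Nfkbia, Nfkbie, Nfkbiz and Tnfaip3, and the kinase gene Ikbkb. They were chosen by gene symbol, and all 10 had a row in the deposited table of 14462 rows (14457 symbols). The mice carried tumours labelled MC38/MC38, MC38 being a mouse colon adenocarcinoma cell line; the IR group (2 libraries) had its MC38 tumours irradiated, the ctrl group (3 libraries) carried the same tumours with the treatment label ctrl, and lungs were taken 3 days after irradiation. The labels used here give no mouse strain, age or radiation dose and do not say which animals the libraries came from, so p-values describe the spread between libraries only, and that spread could be technical. A "value" below is a gene's read signal after the authors' scaling across libraries, in their own unit.

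NF-kB is a family of transcription factors that bind DNA as pairs of subunits and switch on inflammatory, survival and feedback genes. In resting cells, IkB proteins hold the pairs in the cytoplasm; the IKK kinase complex marks IkB for destruction when a receptor for a cytokine or a microbial product is engaged. Freed NF-kB then induces genes of its own inhibitors, which ends the response, so RNA of the inhibitors is widely read as a sign of recent pathway activity. In lung, the pathway is best known in macrophages, neutrophils and lymphocytes, where Rela and Nfkb1 serve the canonical arm and Relb and Nfkb2 the slower non-canonical arm.

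The promoters of these genes were searched for the NF-kB motif, since several of them are known targets of the pathway. RefSeq promoter windows of GRCm38.p6, the build of the mm10 genome named in the submitters' processing notes, were at hand for 6 of the 10 genes: Nfkb2, Nfkbia, Nfkbie, Rel, Rela and Tnfaip3. In the 250 bases before each start, both strands were searched for an NF-kB consensus motif of 10 bases. It reads GGG, then A or G, then any 2 bases, then 2 bases that are C or T, then CC. A match was held by 5 of the 6 genes, all but Rela. Over all promoters, 8.23% of 27025 genes held one. The looser pattern GGGNNNNNCC, which contains the consensus, was found in 6 of the 6 genes and in 48.7% of all genes. Matches can overlap, and a palindromic match counts on both strands. The Nfkbia promoter is shown whole because its gene had the highest level per kb of exon. With all 5 libraries, that gene also had the highest fold change of the 10. The other stretches show matches in promoters of genes whose values did not follow Nfkbia. Nfkb2 and Tnfaip3 held further matches that are not shown. Capitals mark consensus matches, and each line runs 5′ to 3′ on the strand of the gene.
Nfkbia: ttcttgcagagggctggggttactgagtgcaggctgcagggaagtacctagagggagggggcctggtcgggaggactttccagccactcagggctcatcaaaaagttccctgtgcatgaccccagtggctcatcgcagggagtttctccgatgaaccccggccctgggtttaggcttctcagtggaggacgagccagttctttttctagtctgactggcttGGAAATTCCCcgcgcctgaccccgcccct
Rel: cgtaagcagcGGGAAATCCCCccccctccc
Nfkbie: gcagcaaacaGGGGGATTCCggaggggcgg
Nfkb2: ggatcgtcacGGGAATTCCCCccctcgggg
Tnfaip3: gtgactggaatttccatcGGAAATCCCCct
The Nfkbia stretch is chr12:55492648-55492897 (minus strand), and its match lies 29 to 20 bases before the start. The others are chr11:23771042-23771071 (minus) for Rel, chr17:45555584-45555613 (plus) for Nfkbie, chr19:46304688-46304717 (plus) for Nfkb2 and chr10:19015411-19015440 (minus) for Tnfaip3. Nfkb2 had 3 RefSeq starts and Tnfaip3 had 2; the stretches belong to the starts at 46304737 and 19015410. A match describes the letters only and was not tested as a binding site.

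The libraries had totals of 7232126 to 7425923 in ctrl and of 7544034 and 8414753 in IR. Dividing each value by the step that 1 read is worth in its library gave roughly 345 to 37763 reads per gene and library for the 10 genes, so read sampling limited none of them to a few reads. Pairs of ctrl libraries differed by a median absolute log2 difference of 0.383 to 0.508 across genes, and IR replicate 2 differed from the ctrl libraries by 0.633 to 0.717, against 0.450 to 0.584 for IR replicate 1. IR replicate 2 thus stood apart, and values without it are given beside the results that it moved. Ptprc, which encodes CD45, was abundant in every library, at 15543 to 15842 in ctrl and at 17369 and 27247 in IR. Epithelial markers, which a CD45 sort should remove, were nonetheless present: their 16 genes summed to 24252 to 28264 in ctrl and to 119490 and 58510 in IR, and their part in the values below was not tested.

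Scaled to exon length, 3 of the 4 inhibitor genes had levels above every subunit gene in these leukocytes. In ctrl, Nfkbia stood at 6858 ± 560 (SD, n = 3) per kb of exon, Tnfaip3 at 3635 ± 307 and Nfkbiz at 1822 ± 264. These 3 levels did not overlap one another in the ctrl libraries. A lower tier followed, with Nfkbie at 557 ± 95.01, Nfkb1 at 554 ± 81.2, Nfkb2 at 437 ± 84.4, Rela at 406 ± 45.1, Ikbkb at 355 ± 71.3, Rel at 287 ± 36.9 and Relb at 271 ± 29.6 per kb. Each of these overlapped its neighbour in the order. In IR replicate 2, Nfkbiz (5254 per kb) passed Tnfaip3 (4827 per kb), whereas in IR replicate 1 the ctrl order of the top 3 held.

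**Figure D1:**
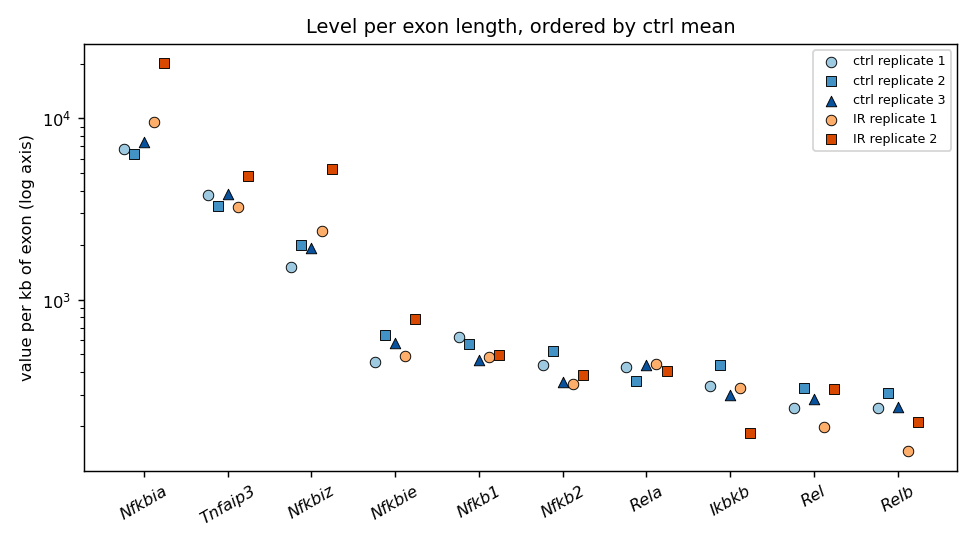
Value per kb of exon (log axis) for each NF-kB gene in each of the 5 libraries, ordered by the ctrl mean; each point is 1 library. Nfkbia, Tnfaip3 and Nfkbiz lie above the other 7 genes in all 5 libraries.

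IR was compared with ctrl to see what tumour irradiation does to RNA of lung leukocytes. Of the 10 genes, 0 passed limma's test at an adjusted p under 0.05, where 1.50% of 12777 genes tested passed; 4 had an unadjusted p under 0.05, against 15.0% of all genes. Nfkbia and Nfkbiz were higher in both IR libraries than in all 3 ctrl libraries, Relb was lower in both, and the other 7 overlapped. Such a gap between groups was seen in 31.5% of all genes tested, so 3 of 10 is close to the background. The median log2 fold change was -0.050 for the 10 genes and -0.053 for all genes. With the nuclear IkB gene Nfkbiz counted as an inhibitor, all 4 inhibitor genes had positive fold changes. Of the 5 subunit genes, 4, all but Rela, had negative ones. In all, 5 of the 10 were positive, against 46.8% of all genes tested. Several of these signs were not stable: without IR replicate 2, Nfkbie (-0.17) and Tnfaip3 (-0.15) turned negative, without IR replicate 1 Rel turned positive (0.17), and Rela turned negative without ctrl replicate 2 and after scaling to library totals. The SE exceeded the size of the fold change for 5 of the 10, Nfkb1, Rel, Rela, Nfkbie and Tnfaip3.

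**Figure D2:**
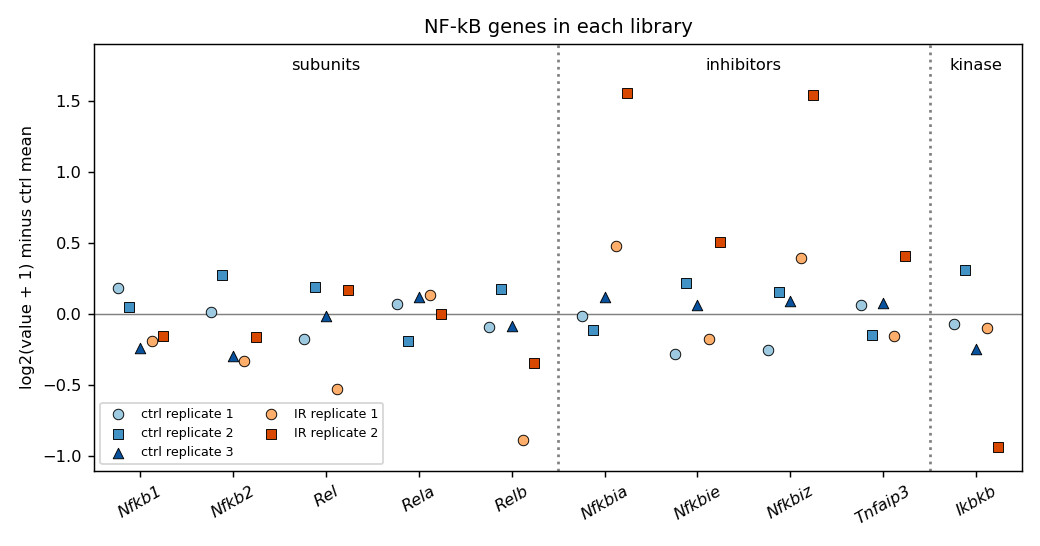
Log2(value + 1) minus the ctrl mean (y axis) for each NF-kB gene; each point is 1 library, blue for ctrl and orange for IR. Nfkbia and Nfkbiz have both IR points above every ctrl point, and Relb has both below.

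Among the subunits, the canonical pair had overlapping values in ctrl and IR. Rela (chromosome 19, 5637483 to 5648130), the subunit with the main transactivation domain of the canonical dimer, had values of 1154, 963 and 1191 in ctrl and of 1206 and 1101 in IR. The log2 fold change came to 0.07 (SE 0.22, adjusted p = 0.915 by limma). After scaling to library totals it was -0.051. Nfkb1 (chromosome 3, 135584655 to 135691547), which encodes the precursor of Rela's usual partner, had 2584, 2351 and 1924 in ctrl and 1995 and 2041 in IR. Both IR libraries lay inside the ctrl range, with a log2 fold change of -0.17 ± 0.20 (SE, adjusted p = 0.741).

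Rel (chromosome 11, 23736847 to 23770970), a subunit prominent in lymphocytes and myeloid cells, was split between the IR libraries. Its values were 1886, 2434 and 2108 in ctrl and 1483 and 2396 in IR, so IR replicate 1 was below all ctrl libraries and IR replicate 2 was within their range. The log2 fold change came to -0.18 (SE 0.22, adjusted p = 0.753 by limma), -0.52 without IR replicate 2 and 0.17 without IR replicate 1.

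The non-canonical subunits had negative fold changes, as did Nfkb1 and Rel, and only Relb was separated from ctrl. Relb (chromosome 7, 19606217 to 19629438), which pairs with the product of Nfkb2, had 560, 675 and 564 in ctrl and 323 and 471 in IR. Both IR libraries lay below all 3 ctrl libraries, which 16.3% of all genes also showed. The means were 600 ± 65.3 (SD, n = 3) and 397 ± 105 (SD, n = 2), a log2 fold change at -0.62 (SE 0.27, adjusted p = 0.290 by limma). The gap was wider in IR replicate 1, with -0.89 without IR replicate 2 (adjusted p = 0.219) and -0.34 without IR replicate 1 (0.520). Nfkb2 (chromosome 19, 46304320 to 46312385) had 1843, 2202 and 1489 in ctrl and 1454 and 1627 in IR. These groups overlapped, and its log2 fold change was -0.24 ± 0.21 (SE, adjusted p = 0.634). Nfkb2 overlaps Psd and Ikbkb overlaps Gm15346 on the opposite strand, and Nfkb1 overlaps Gm43430 on its own strand. Since the counting's strand setting is not given in the sources used here, some reads may be shared.

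Nfkbia had the largest fold change of the 10 with all 5 libraries in the fit, a rank that went to Relb (-0.89) without IR replicate 2 and to Nfkbiz (1.05, against 0.96) without ctrl replicate 2. The gene (chromosome 12, 55489410 to 55492647) encodes IkB alpha, the inhibitor that is destroyed and remade in each cycle of activation. Its values were 10711, 10000 and 11757 in ctrl, and 15028 and 31741 in IR. Both IR libraries lay above all 3 ctrl libraries, a gap that 15.2% of all genes showed in this direction, and IR replicate 2 had 2.11 times the value of IR replicate 1. The means were 10823 ± 884 (SD, n = 3) and 23384 ± 11818 (SD, n = 2), and the log2 fold change was 1.02 ± 0.25 (SE), at the 89.5th percentile of all genes. It missed the threshold narrowly (limma adjusted p = 0.0580). It passed after scaling to library totals (0.89, adjusted p = 0.0286, where 2.03% of all genes passed) and with a pseudocount of 10 (adjusted p = 0.0248, where 2.46% did). It also passed when libraries were weighted by limma, a setting added once the data had been seen (adjusted p = 0.00641, where 1.85% of all genes passed). Without IR replicate 2 the log2 fold change was 0.48 (adjusted p = 0.310), and without IR replicate 1 it was 1.56 (adjusted p = 0.000160, in a fit where 8.13% of all genes passed). In each of these fits the lone IR library is assumed to vary like the others.

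Nfkbiz had nearly the same profile. The gene (chromosome 16, 55811375 to 55838899) encodes a nuclear IkB protein that acts on secondary response genes beside NF-kB. Its values were 6293, 8340 and 7985 in ctrl and 9848 and 21743 in IR, again with no overlap and with IR replicate 2 far above IR replicate 1. The means were 7539 ± 1094 (SD, n = 3) and 15796 ± 8410 (SD, n = 2), with a log2 fold change at 0.97 (SE 0.28, adjusted p = 0.132 by limma). Without IR replicate 2 it was 0.40, and without IR replicate 1 it was 1.54. Per kb, the ratio of Nfkbia to Nfkbiz was 3.14 to 4.46 in ctrl and 4.001 and 3.828 in IR, inside the ctrl range.

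Tnfaip3 and Nfkbie did not share this pattern in both IR libraries. Tnfaip3 (chromosome 10, 19000910 to 19015657), a ubiquitin-editing enzyme that shuts off signalling upstream of IKK, had 17430, 15076 and 17601 in ctrl and 14987 and 22182 in IR. One IR library lay below the ctrl range and the other above it, with a log2 fold change at 0.13 (SE 0.18, adjusted p = 0.788 by limma) that became -0.15 without IR replicate 2 and 0.41 without IR replicate 1. Nfkbie (chromosome 17, 45555703 to 45563169), which encodes IkB epsilon, had 1105, 1560 and 1402 in ctrl and 1190 and 1906 in IR. IR replicate 1 lay within the ctrl range, and the log2 fold change of 0.17 ± 0.23 (SE, adjusted p = 0.783) became -0.17 without IR replicate 2. Nfkbie and Tnfaip3 hold consensus matches in their promoters, as Nfkbia does, and so do Rel and Nfkb2, whose fold changes were negative.

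Ikbkb (chromosome 8, 22659212 to 22706589), the catalytic IKK subunit that phosphorylates IkB proteins, was low in 1 IR library. It had 1517, 1970 and 1345 in ctrl and 1486 and 832 in IR. IR replicate 1 was within the ctrl range and IR replicate 2 below it, in the opposite sense to Nfkbia. The log2 fold change came to -0.52 (SE 0.24, adjusted p = 0.323 by limma). It was -0.10 without IR replicate 2 and -0.93 without IR replicate 1.

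**Figure D3:**
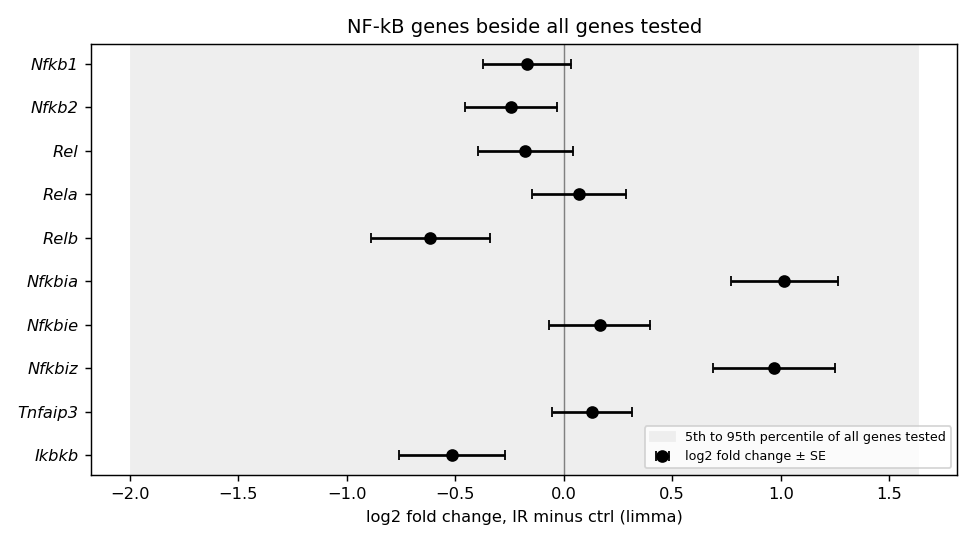
Log2 fold change of IR minus ctrl with its SE (x axis, limma) for each NF-kB gene, over a grey band from the 5th to the 95th percentile of all 12777 genes tested. All 10 genes lie inside the band, with Nfkbia (1.02) and Nfkbiz (0.97) farthest to the right and Relb (-0.62) farthest to the left.

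Within each library, the inhibitors were also set against the subunits. The mean log2(value + 1) of the 4 inhibitor genes minus that of the 5 subunit genes was 2.08, 2.13 and 2.39 in ctrl and 2.69 and 3.30 in IR. Both IR libraries lay above the ctrl range, by a mean difference of 0.80 that became 0.49 without IR replicate 2 and 1.10 without IR replicate 1. No test of this difference was made, since the genes were chosen with results known. Of the 4 inhibitors, Nfkbia (log2 fold change 1.02) and Nfkbiz (0.97) contributed most to it. Nfkbie (0.17) and Tnfaip3 (0.13) overlapped between the groups and turned negative without IR replicate 2. Per kb, the ratio of Nfkbia to Rela was 15.98, 17.9 and 17.0 in ctrl and 21.5 and 49.6 in IR. The ratio of Nfkbia to Nfkb1 was 10.8, 11.1 and 15.97 in ctrl and 19.7 and 40.6 in IR. The ratio of Relb to Rela was 0.597, 0.861 and 0.581 in ctrl and 0.329 and 0.525 in IR, so Relb was lower in both IR libraries relative to Rela as well. Nfkb2 relative to Nfkb1 was 0.697 to 0.915 in ctrl and 0.712 and 0.779 in IR, which is no separation.

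Neutrophil markers moved with Nfkbia and Nfkbiz. Of 16 mature neutrophil markers, 6 rose, 0 fell and 10 did not pass, where 1.14% of all genes rose. All 16 had positive fold changes, against 46.8% of all genes, and the median was 1.32. Without IR replicate 2, none (0) of the 6 passed, 2 others did, and the median was 0.93. Leaving out the first or the second ctrl library left 1 that rose, while 11 rose when the third was left out. Of all genes tested, 18, 22 and 90 rose in those fits, in that order. Without IR replicate 1, the median of the 16 markers was 1.75. Their summed value was 38806 to 67095 in ctrl and 92399 and 176119 in IR. Relative to the ctrl mean, IR replicate 1 had a list median of 0.93 and IR replicate 2 of 1.75 (log2), beside 0.48 and 1.56 for Nfkbia and 0.40 and 1.54 for Nfkbiz. Csf3r, the G-CSF receptor of neutrophils, had values of 4403, 6286 and 7465 in ctrl and 11008 and 18623 in IR. Divided by Csf3r, Nfkbia gave 2.43, 1.59 and 1.57 in ctrl and 1.37 and 1.70 in IR, and Nfkbiz gave 1.43, 1.33 and 1.07 in ctrl and 0.895 and 1.17 in IR. Both ratios overlapped between the groups, so neither gene was separated once set against this marker. Divided by Ptprc, Nfkbia gave 0.643 to 0.745 in ctrl and 0.865 and 1.16 in IR, without overlap. Nfkbiz gave 0.397 to 0.537 in ctrl and 0.567 and 0.798 in IR, also without overlap. The 11 classical monocyte markers had 3 that rose, 0 that fell and 8 that did not pass. Positive fold changes were seen in 10 (median 0.39, 0.44 without IR replicate 2, 0.25 without IR replicate 1). They summed to 54904 to 60372 in ctrl, against 75185 and 76894 in IR. Alveolar macrophage markers (15) had 0 that passed. Negative fold changes were seen in 13 (median -0.53, -0.69 without IR replicate 2, -0.25 without IR replicate 1). In bulk libraries, more cells of a type and more RNA per cell cannot be told apart. The part of neutrophils, monocytes and macrophages in the values of Nfkbia and Nfkbiz was not tested.

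Values of sample handling genes and lymphocyte markers are given for the same libraries. Of all genes tested, 1.14% passed as higher and 0.360% as lower. On the list of 14 immediate early genes and genes of dissociation stress, 1 passed as higher, 0 as lower and 13 missed. Of the 14, 12 had positive fold changes, against 46.8% of all genes. In 10 of them both IR libraries lay above every ctrl library, against 15.2% of all genes, and in 1 they lay below. The median was 0.46, 0.23 without IR replicate 2 and 0.68 without IR replicate 1. The number higher was 0 without ctrl replicate 1, 2 or 3, where 18, 22 and 90 of all genes tested were higher. The summed value was 89559 to 102400 in ctrl and 107926 and 155763 in IR. Of 16 T cell markers, 2 fell, 0 rose and 14 did not pass (median -0.76). A positive fold change was seen in 1 of them, against 46.8% of all genes. In 10 of them both IR libraries lay below every ctrl library, against 16.3% of all genes. With ctrl replicate 1, 2 or 3 left out, 0 fell, where 1, 1 and 5 of all genes tested did. The median of these markers was -0.59 without IR replicate 2 and -0.81 without IR replicate 1. They had a summed value of 9420 to 10828 in ctrl and of 6535 and 5620 in IR. Of 14 B cell markers, 1 fell, 0 rose and 13 did not pass (median -0.49). None (0) had a positive fold change, and in 4 both IR libraries lay below every ctrl library. Without ctrl replicate 1 or ctrl replicate 3, 0 fell, where 1 and 5 of all genes tested did. The median of these markers was -0.40 without IR replicate 2 and -0.70 without IR replicate 1. They had a summed value of 17280 to 31042 in ctrl and of 21130 and 15358 in IR. No marker of these lists was at 0 in all libraries. Relb was lowest in IR replicate 1, whereas the T and B cell sums and Ikbkb were lowest in IR replicate 2; the part of these cells and of handling in the NF-kB genes was not tested.

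**Figure D4:**
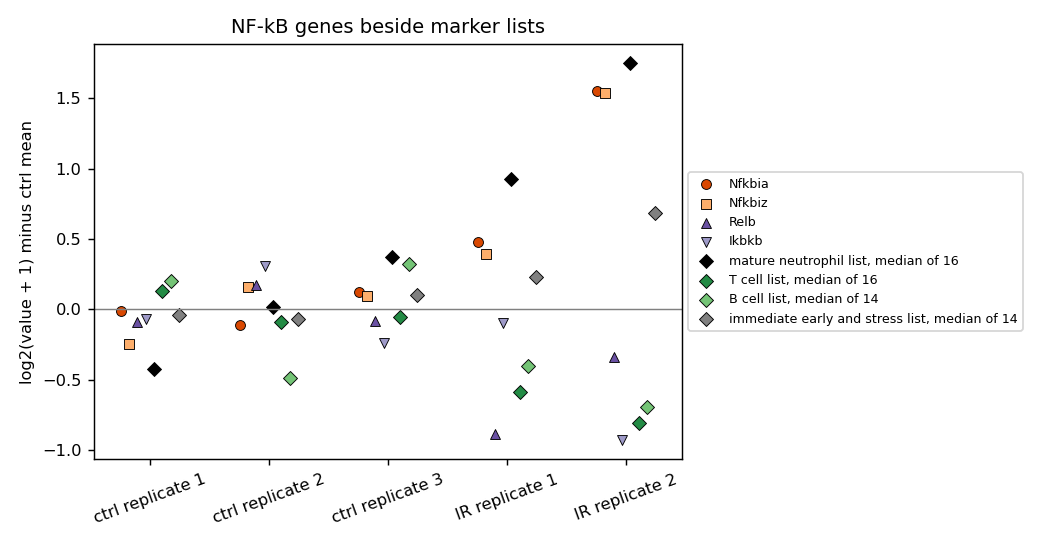
Log2(value + 1) minus the ctrl mean (y axis) in each library, for 4 NF-kB genes and for the median of 4 marker lists (diamonds); each symbol is 1 gene or list in 1 library. Nfkbia and Nfkbiz lie below the mature neutrophil median and above the immediate early median in both IR libraries.

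The wider pathway was read from 6 lists of upstream and downstream genes, 127 in all, of which 122 were tested. Of these, 3 rose, 0 fell and 119 did not pass; the share that rose was 2.46%, beside 1.14% of all genes that rose and 0.360% that fell. The median log2 fold change was 0.28. The 3 that rose come from 3 different steps of the pathway. With the mean trend off, none (0) of the 3 passed, and 0 of all genes tested did.

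Among 16 other inhibitors, Nlrx1 rose, 0 fell and 15 did not pass, with a median log2 fold change of 0.28. Nlrx1, a mitochondrial protein described as a brake on innate signalling, had 161, 153 and 177 in ctrl and 331 and 588 in IR. Its log2 fold change came to 1.43 (SE 0.36, adjusted p = 0.0441 by limma), and it missed the threshold without IR replicate 2 (1.02, adjusted p = 0.3995) and without any one ctrl library (0.130 to 0.206), and after scaling to library totals (0.0546), with no filter (0.0600) and with robust estimation off (0.0564).

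The kinase list of 16 genes had 0 that passed (median -0.15). Of them 2 (12.5%) had an unadjusted p under 0.05, against 15.0% of all genes. Tab2, an adaptor of the kinase that activates IKK, had 1470, 1578 and 1566 in ctrl and 1949 and 2627 in IR (log2 fold change 0.56, limma adjusted p = 0.188, and 0.34 without IR replicate 2). Tbk1, an IKK-related kinase, had 506, 701 and 448 in ctrl and 384 and 310 in IR (-0.65, adjusted p = 0.290), so these 2 separated in opposite directions. Map3k3 and Irak1, the most abundant of the others, had fold changes of 0.18 and -0.15 and overlapping groups.

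Of 19 adaptors and ubiquitin ligases, 0 passed (median 0.03). An unadjusted p under 0.05 was seen for 3 of them (15.8%), close to the 15.0% of all genes. Malt1, a protease of antigen receptor signalling, had 2077, 2113 and 1886 in ctrl and 1185 and 1953 in IR, with overlap and a log2 fold change of -0.41 (adjusted p = 0.385 by limma). Birc2, a ubiquitin ligase that restrains the non-canonical arm, had a log2 fold change of -0.65 (adjusted p = 0.207) with both IR libraries below ctrl, and its relative Birc3 had -0.20 with overlap.

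Of 18 receptors, 0 passed and 8 had an unadjusted p under 0.05, which 15.0% of all genes had (median 0.37). Without IR replicate 2, 2 of the 18 had one and the median was 0.20, where 10.4% of all genes had one. Il1rap, the shared chain of interleukin-1 family receptors, had 237, 478 and 460 in ctrl and 979 and 2796 in IR. Both IR libraries were above ctrl, IR replicate 2 most of all, and the log2 fold change of 2.14 ± 0.45 (SE) missed the threshold narrowly (adjusted p = 0.0513 by limma). It passed after scaling to library totals (limma adjusted p = 0.0264), with no filter (0.0349) and with a filter of 50 (0.0411). It also passed with robust estimation off (0.00995) and without ctrl replicate 3 (0.0149). Without IR replicate 1, Il1rap had a log2 fold change of 2.90. It missed the threshold without IR replicate 2 (1.39, adjusted p = 0.0540), without ctrl replicate 1 (0.0637) or ctrl replicate 2 (0.0551), with a pseudocount of 10 (0.0559) or 0.5 (0.0514), with TMM factors (0.0536) or median-ratio factors (0.0517), with array weights (0.0656) and with the mean trend off (0.475). Tnfrsf1a, the main receptor for tumour necrosis factor, had 1226, 1615 and 1479 in ctrl and 1990 and 2424 in IR (0.62, adjusted p = 0.147). Clec7a, a receptor for fungal glucan, and Tnfrsf1b, the second receptor for tumour necrosis factor, had fold changes of 0.75 and 0.25 (adjusted p = 0.115 and 0.581), each with IR above ctrl. Without IR replicate 2, Clec7a had 0.32, and without IR replicate 1 it had 1.17.

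Of 12 ligands tested, Tnfsf14 rose, 0 fell and 11 did not pass (median 0.85). Tnfsf14, a ligand of the lymphotoxin beta receptor that feeds the non-canonical arm, had 224, 243 and 417 in ctrl and 568 and 1069 in IR. Its log2 fold change came to 1.46 (SE 0.33, adjusted p = 0.0251 by limma), and it did not pass without ctrl replicate 1 (adjusted p = 0.205), ctrl replicate 2 (0.154) or IR replicate 2 (0.279, with a log2 fold change of 1.003). Relb and Nfkb2, subunits of that arm, had negative fold changes in the same libraries, as did Nfkb1 and Rel.

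Of 41 NF-kB target genes tested, Ier3 rose, 0 fell and 40 did not pass; 18 had an unadjusted p under 0.05, against 15.0% of all genes, 31 had positive fold changes, against 46.8% of all genes, and the median was 0.60. Without IR replicate 2, 2 rose, 6 had an unadjusted p under 0.05 (10.4% of all genes did), 31 were positive (51.8% of all genes were) and the median was 0.31. Without IR replicate 1 the median was 0.82. Without ctrl replicate 3, 4 of the 41 rose, where 90 of 12376 genes did. Ier3, an early response gene that acts on cell survival, had 535, 590 and 561 in ctrl and 1358 and 1772 in IR. Its log2 fold change came to 1.46 (SE 0.23, adjusted p = 0.00151 by limma), and it passed with each of the 5 libraries left out. With the mean trend off, Ier3 did not pass, in a fit where 0 of all genes did. Relative to the ctrl mean, the target list had a median of 0.31 in the first IR library and of 0.82 in the second. These medians lay below the fold changes of Nfkbia in the same libraries (0.48 and 1.56), and no test of that difference was made. The target list shares genes with the mature neutrophil list and the immediate early list. The part of cell makeup and handling in its values was not tested.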

How the data were processed

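Libraries were made with a stranded total RNA kit for small inputs, per the labels' protocols. The submitters' processing notes name HISAT2, HTSeq and mm10 with no role. The sources used here give no strand setting, gene filter or scaling method. The deposited table held a scaled read signal with 1 decimal rather than whole counts. In each library the lowest values fell close to multiples of a fixed step (67.8% to 100% of them to within 0.1 step), so whole reads were not recovered, no count-based test was run, and read numbers are approximate.

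The 12777 genes that reached 10 in 2 or more libraries were fitted as log2(value + 1) with limma 3.58.1 (R 4.3.3), mean trend and robust estimation, without covariates. Tests were two-sided, adjusted by Benjamini-Hochberg across the fitted genes, with 0.05 as the threshold for a call. Fold changes refer to log2(value + 1) and understate changes of low genes. The fit was tested on simulated data that gave both groups the spread of the ctrl libraries. That test does not cover the wider spread between the IR libraries. The raw-count form of the fixed design did not apply, and its fallback was used. Groups follow the treatment label, and replicate numbers follow accession order. The NF-kB genes and the lists were chosen with earlier results of these data known. All 10 NF-kB genes are named. From each pathway list the text names every gene called or, with none called, the 2 with the smallest p and the 2 others with the highest mean; Ptprc was added to check the sort, and markers appear as lists and, of the preset defining markers, Csf3r. Gene coordinates and exon lengths (union over protein-coding transcripts of the basic set) are from GENCODE vM21 (GRCm38). A gene of the adaptor list, which its counts and median include, is not reported here by its own values.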

Additional observations from a re-analysis of the deposited data

How the results depend on the processing

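Settings covered the scaling, pseudocount, filter, variance model and each library left out, plus array weights, chosen after seeing the data. Of the 10 NF-kB genes 0 passed; 1 passed after scaling to library totals, 1 with a pseudocount of 10, 2 with array weights, and 0 to 3 with 1 library left out. Of the pathway genes 3 rose; the number was 8 with a pseudocount of 10, 0 with the mean trend off, 6 with array weights, and 1 to 27 with 1 library left out, where 0 to 3 fell. Of all genes 192 passed; 314 did with a pseudocount of 10, 0 with the mean trend off, and 19 to 1006 with 1 library left out. Scaling to totals shifted all genes' median by -0.12 (log2), with 143 genes higher and 116 lower, against 146 and 46. The inhibitor and subunit difference ranged from 0.49 to 1.10 with 1 library left out. The log2 fold change of Rela reversed to -0.051 after scaling to totals. With 1 library left out, signs varied for Rela (-0.025 to 0.14), Rel (-0.52 to 0.17), Nfkbie (-0.17 to 0.51), Tnfaip3 (-0.15 to 0.41) and Birc3 (-0.65 to 0.25). With array weights, Nfkbia (adjusted p = 0.00641) and Nfkbiz (0.0277) passed. The causes were not tested, beyond the fewer samples when a library is left out. Tests on recovered reads were not run. No paired analysis was possible because the labels give no replicate numbers shared between the groups. Read depth limits genes at a few units, and the share of the spread that depth gives was not tested.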
